A study of Mus musculus with 8 samples.

Results

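Cells sense oxygen through hypoxia-inducible factors (HIFs), and 10 genes of this system were followed in mouse islets kept in high or low glucose: the HIF subunit genes Hif1a, Epas1 and Arnt, the HIF prolyl hydroxylase genes Egln1, Egln2 and Egln3, the collagen prolyl hydroxylase subunit genes P4ha1 and P4ha2, and the hypoxia targets Vegfa and Ndrg1. They were taken by name from a deposited table of 27534 genes, and each name matched 1 row. Islets of C57BL/6J mice, the endocrine clusters of the pancreas, had been cultured for 72 h in RPMI medium with 20 mM glucose (high glucose, 4 libraries) or 7.5 mM glucose (low glucose, 4 libraries) and their total RNA was sequenced in bulk. The labels give 1 serum and 1 buffer for both media. The labels do not say how many animals gave islets to a library or whether libraries came from separate animals, so that p-values measure only the spread between these libraries, which may be technical. The oxygen level of the cultures is not given in the labels.

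HIFs are pairs of an oxygen-regulated α subunit (the products of Hif1a or Epas1) and a stable partner encoded by Arnt. In oxygen, the EGLN enzymes hydroxylate prolines of the α subunit, which marks it for destruction through the ubiquitin ligase subunit VHL, so that HIF activity is set mainly at the protein and not at the transcript. When hydroxylation stops, the pair binds DNA and raises genes of glycolysis, vessel growth and collagen modification, and also Egln3 itself. In the islet, VEGF-A made by β cells maintains the capillary bed, and Arnt is known to be needed for normal insulin release.

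HIF binds the letters ACGTG or GCGTG, and the 250 bases before the annotated start are shown for the members with the largest changes, 3 that were higher and 1 that was lower in high glucose, to let their start regions be compared. The sequences are RefSeq's (GRCm38.p6), read 5′ to 3′ on the gene's strand, and capitals mark ACGTG or GCGTG or their reverse complements CACGT and CACGC. The windows are chr12:54203875-54204124 (minus strand) for Egln3, chr10:59323046-59323295 (plus) for P4ha1, chr11:54100674-54100923 (plus) for P4ha2 and chr17:46032378-46032627 (minus) for Vegfa. The P4ha2 window lies inside the gene span used for the counts (54100095 to 54131665), because RefSeq's start is inside that span. Of the windows not shown, those of Hif1a and of the inner Egln2 and Vegfa starts also lie inside the gene span, and those of Egln1 and Arnt reach into it.
Egln3: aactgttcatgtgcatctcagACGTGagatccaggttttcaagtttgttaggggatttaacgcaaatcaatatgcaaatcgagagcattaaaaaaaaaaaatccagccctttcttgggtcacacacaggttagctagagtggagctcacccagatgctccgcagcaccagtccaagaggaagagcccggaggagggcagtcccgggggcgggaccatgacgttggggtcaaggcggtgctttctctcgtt
P4ha1: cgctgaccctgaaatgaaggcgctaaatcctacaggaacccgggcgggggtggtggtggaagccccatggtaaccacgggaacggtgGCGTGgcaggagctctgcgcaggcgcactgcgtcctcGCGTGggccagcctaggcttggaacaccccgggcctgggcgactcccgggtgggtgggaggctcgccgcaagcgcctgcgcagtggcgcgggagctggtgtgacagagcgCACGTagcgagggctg
P4ha2: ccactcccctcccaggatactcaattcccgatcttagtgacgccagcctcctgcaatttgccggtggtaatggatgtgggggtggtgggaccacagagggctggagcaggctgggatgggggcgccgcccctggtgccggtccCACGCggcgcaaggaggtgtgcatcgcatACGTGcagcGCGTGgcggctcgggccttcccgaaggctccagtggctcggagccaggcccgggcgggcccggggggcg
Vegfa: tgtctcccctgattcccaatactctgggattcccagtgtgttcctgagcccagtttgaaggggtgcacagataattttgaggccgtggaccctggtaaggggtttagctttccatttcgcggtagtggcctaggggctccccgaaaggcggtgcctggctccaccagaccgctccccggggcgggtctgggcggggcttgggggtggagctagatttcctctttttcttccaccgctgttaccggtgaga
The letters occurred 1 time in the Egln3 window, 3 times in the P4ha1 window, 3 times in the P4ha2 window and 0 times in this Vegfa window. Sequence beyond the windows was not searched, so that a count of 0 does not mean that a gene lacks the letters elsewhere. Vegfa has another annotated start inside the gene, whose window held 2 matches. Of the 10 windows that RefSeq lists for 8 members, 9 held at least 1 match, against 38.6% of all 32851 windows of the same length, and 7 held ACGTG or its reverse complement, against 16.6%. Both motifs contain CG, and the windows compared were not matched for base content. Egln2 and Vegfa each enter with 2 windows. The Egln1 and Egln2 windows, of members that did not pass the test, held matches as well. ACGTG also lies within CACGTG, the E-box letters that other factors bind. A match of 5 letters is a description of the sequence and not a binding site. Epas1 and Ndrg1 were not in the table of start regions.

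Of the 10 genes, 4 rose and 2 fell in high glucose, and 4 did not pass. Egln3, P4ha1, P4ha2 and Arnt were higher, and Vegfa and Ndrg1 were lower. These calls are adjusted p-values under 0.05 in edgeR's quasi-likelihood test over all 15442 genes that passed a filter on low counts. Of those genes 25.0% changed, 13.1% being higher and 11.9% lower in high glucose. All 10 members passed the filter. The 4 high glucose and the 4 low glucose libraries did not overlap for 6 of the 10, 4 higher and 2 lower, against 27.3% of all genes tested, of which 13.7% were higher and 13.6% lower. The members' median log2 fold change was 0.15, against -0.01 over all genes. The members were chosen with earlier results of these data known, so that these comparisons with all genes are a description only. With the replicate number as a block the same 6 members were called, 4 higher and 2 lower, against 37.4% of all genes, 18.9% higher and 18.5% lower. When libraries were scaled by total count alone, 1602 genes were higher and 2636 lower in high glucose, against 2023 and 1831 here, and 9 of the 10 members' calls were as here, Arnt being the exception. The authors' deposited table lists adjusted p under 0.05 for the same 6 members, with 0.00997 for Arnt and 0.0142 for Ndrg1.

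**Figure D1:**
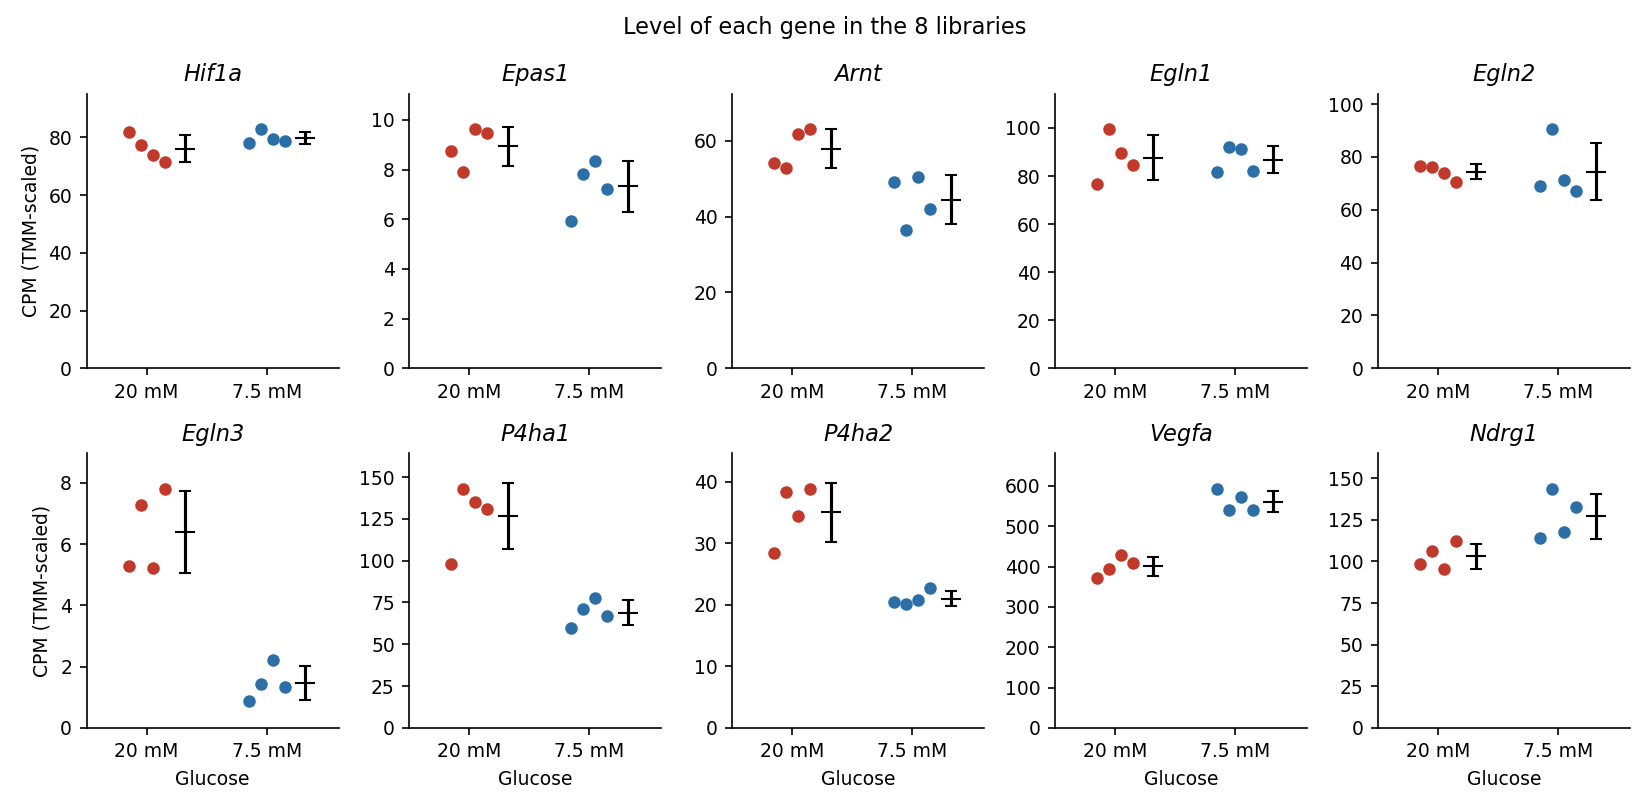
Level of each of the 10 genes in CPM (vertical axis, from 0), with 1 point per library, the 20 mM glucose group left of the 7.5 mM group, and the mean ± SD beside the points (n = 4). The groups do not overlap for Arnt, Egln3, P4ha1 and P4ha2, which are higher in 20 mM glucose, or for Vegfa and Ndrg1, which are lower.

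Total counts were 20516328 to 24905499 in high glucose libraries and 19543045 to 24949515 in low glucose libraries, so that 3 counts correspond to 0.120 to 0.154 CPM (a gene's counts relative to the scaled library total), a floor that covers counting error only. Ins1 and Ins2, the insulin genes, made up between 17.3% and 21.7% of a high glucose library and between 17.2% and 22.7% of a low glucose library. Of 6 β cell markers, Iapp rose, Ucn3, Slc2a2 and Mafa fell, and the insulin genes did not pass, and the part of this in the results was not tested. Acinar markers (8 of 8 found, none at 0 in all libraries, Ctrb1 and Prss2 highest) summed to between 0.276% and 1.54% of a high glucose library, against 0.110% to 0.927% of a low glucose one. Their sum was higher in high glucose in each of the 4 same-number pairs. The δ cell markers Sst and Hhex were likewise higher in each pair, summing to between 0.231% and 0.375% of a high glucose library, against 0.155% to 0.276% of a low glucose one, and neither gene passed the test. Of 4 α cell and 4 ductal markers, Ttr (adjusted p = 0.0216, edgeR) and Spp1 (0.0407) rose and the others did not pass. Fibroblast, stellate and pericyte markers (9 of 9 found, none at 0, Col1a1 and Col3a1 highest) took 0.115% in high glucose replicate 1 and 0.0161% to 0.0311% in the other high glucose libraries, against 0.0137% to 0.0322% in low glucose. The part of these cell types in the results was not tested, except where a value without that library is given. In bulk RNA, fewer cells of a type and less RNA per cell cannot be told apart.

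The transcripts of the α subunits differed by less than the test could call, while that of their partner was higher in high glucose. Hif1a, the α subunit gene found in most cells (ENSMUSG00000021109, GRCm38 chromosome 12, 73901375 to 73947530), was at 81.9, 77.2, 73.7 and 71.4 CPM in high glucose replicates 1 to 4, against 78.2, 82.8, 79.5 and 78.6 CPM in low glucose. The groups overlapped, and the log2 fold change was -0.07 ± 0.07 (SE) with an edgeR adjusted p of 0.49. An antisense gene, Gm15283, shares 5.60% of the exon bases of Hif1a, but its counts were at most 30 in a library.

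Epas1, an α subunit gene best known from endothelium (ENSMUSG00000024140, chromosome 17, 86753907 to 86833410), was at 8.76, 7.90, 9.62 and 9.46 CPM in high glucose and 5.91, 7.82, 8.33 and 7.20 CPM in low glucose. The ranges overlapped in part, although the high glucose library was above the low glucose library in all 4 same-number pairs, by 0.57, 0.01, 0.21 and 0.39 on the log2 scale. The log2 fold change of 0.29 ± 0.14 (SE) had an edgeR adjusted p of 0.156 and did not pass, nor did it with the replicate block (adjusted p = 0.0944). Endothelial markers (10 of 10 found, none at 0 in all libraries, Eng and Esam highest) summed to between 0.00354% and 0.00459% of a high glucose library, against 0.00402% to 0.00507% of a low glucose one, and none passed the test. Their sum was higher in high glucose in 3 of the 4 same-number pairs.

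Arnt, the shared partner (ENSMUSG00000015522, chromosome 3, 95434388 to 95497240), was at 54.2, 52.8, 61.8 and 63.1 CPM in high glucose against 49.1, 36.6, 50.6 and 41.9 CPM in low glucose. Every high glucose library was above every low glucose library, by a narrow margin between high glucose replicate 2 and low glucose replicate 3. Arnt had a log2 fold change of 0.38 ± 0.11 (SE, 1.30-fold) with an edgeR adjusted p of 0.0276, and adjusted p of 0.00184 with the replicate block. The call was lost without high glucose replicate 3 (adjusted p = 0.0756), without high glucose replicate 4 (0.0779) and without low glucose replicate 4 (0.0783), and when libraries were scaled by total count alone (0.13).

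The ratio of Epas1 to Hif1a, taken from the authors' FPKM (counts scaled by gene length and library size), was -2.94 ± 0.19 on the log2 scale in high glucose and -3.31 ± 0.20 in low glucose (SD, n = 4 each). The difference of 0.37 had an exact two-sided permutation p of 0.0571, and 0.143 after adjustment over the 5 ratios compared, and did not pass. With 4 against 4 libraries the smallest p that the permutations can give is 0.0286. The ratio was higher in high glucose in all 4 same-number pairs, by 0.50, 0.12, 0.32 and 0.53. An exact two-sided sign-flip permutation over the pairs gave p = 0.125, the smallest that 4 pairs allow.

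Among the Egln genes, Egln3 alone passed the test, while the more abundant Egln1 and Egln2 had log2 fold changes near 0. Egln1, which encodes the main HIF hydroxylase of most tissues (ENSMUSG00000031987, chromosome 8, 124908587 to 124949324), was at 76.8, 99.4, 89.5 and 84.7 CPM in high glucose and 81.8, 92.2, 91.1 and 82.2 CPM in low glucose. Its high glucose libraries hold both the lowest and the highest value of the 8. The log2 fold change was 0.01 ± 0.09 (SE) with an edgeR adjusted p of 0.931.

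Egln2 (ENSMUSG00000058709, chromosome 7, 27158658 to 27166802), which encodes a mainly nuclear hydroxylase, was at 76.7, 76.3, 74.1 and 70.5 CPM in high glucose and 69.2, 90.5, 71.4 and 66.9 CPM in low glucose. Low glucose replicate 2 stood above the other 7 libraries. Its log2 fold change was -0.00 ± 0.10 (SE), with an edgeR adjusted p of 0.993. The antisense neighbour Cyp2t4 shares 11 exon bases with Egln2 and had at most 46 counts in a library.

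Egln3, a hydroxylase that hypoxia itself induces (ENSMUSG00000035105, chromosome 12, 54178981 to 54203860), was at 5.29, 7.28, 5.23 and 7.80 CPM in high glucose, against 0.872, 1.45, 2.23 and 1.34 CPM in low glucose. These rest on 110, 140, 111 and 193 reads in high glucose and 23, 27, 47 and 28 reads in low glucose. The groups were far apart, and the smallest gap was to low glucose replicate 3. High glucose was higher in all 4 same-number pairs, by 2.60, 2.33, 1.23 and 2.54 on the log2 scale. Egln3 rose, with a log2 fold change of 2.13 ± 0.28 (SE, 4.37-fold) and an edgeR adjusted p of 0.000359. It ranged from 1.93 to 2.40 when each library was left out in turn, with adjusted p of at most 0.00203.

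Per gene length, Egln3 remained the least abundant of the 3 hydroxylase transcripts in both media. It was at 2.38 ± 0.49 FPKM in high glucose and 0.539 ± 0.205 FPKM in low glucose (SD, n = 4 each), while Egln1 was at 24.1 ± 2.57 FPKM in high and 23.6 ± 1.45 FPKM in low glucose, and Egln2 at 26.3 ± 0.95 FPKM in high and 25.9 ± 3.67 FPKM in low glucose. Egln3 made up 3.92%, 4.74%, 3.69% and 5.67% of the summed FPKM of the 3 genes in high glucose, against 0.685%, 0.929%, 1.62% and 1.07% in low glucose. The groups did not overlap, and the difference of 3.43 percentage points had an exact two-sided permutation p of 0.0286, the smallest that the permutations can give. After adjustment over the 5 ratios it was 0.143 and did not pass. A ratio that alone reaches the smallest p cannot pass this adjustment, so the outcome does not bear on whether the share differed. Egln1 made up 45.6% ± 2.53 of the sum in high and 47.2% ± 2.33 in low glucose, and Egln2 49.9% ± 2.90 in high and 51.7% ± 2.54 in low glucose (exact permutation p = 0.40 for both, SD, n = 4 each).

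**Figure D2:**
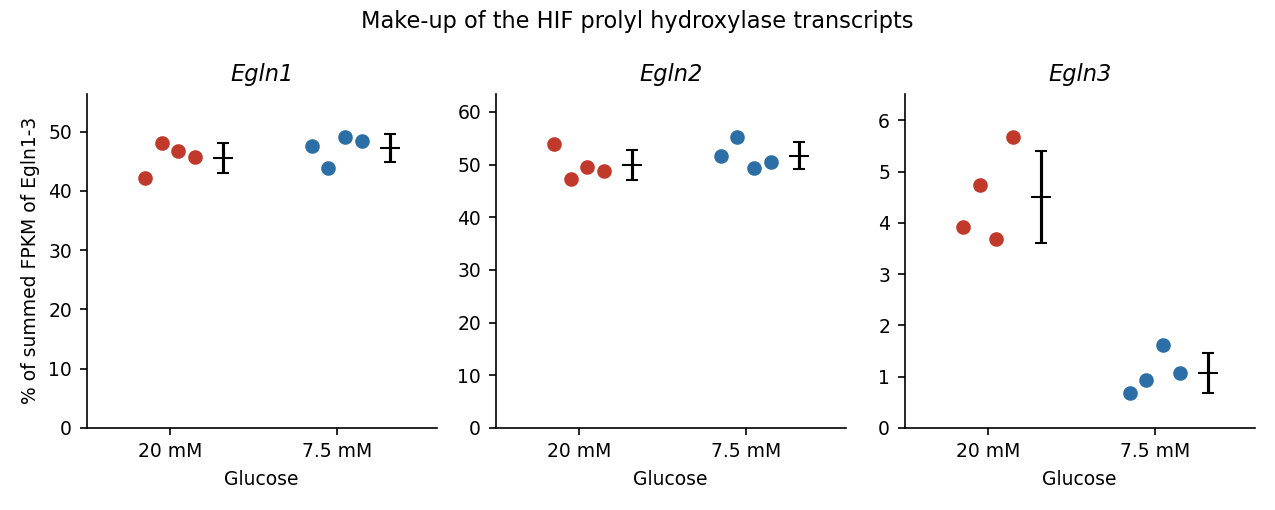
Share of Egln1, Egln2 and Egln3 in their summed FPKM (vertical axis, percent, from 0 and scaled per panel), with 1 point per library and the mean ± SD beside it (n = 4), 20 mM glucose left of 7.5 mM. Egln3 lies between 3.69% and 5.67% in 20 mM glucose and between 0.685% and 1.62% in 7.5 mM glucose.

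Both collagen prolyl hydroxylase genes were higher in high glucose, by 1.84-fold for P4ha1 and 1.67-fold for P4ha2. P4ha1 and P4ha2 encode alternative catalytic α subunits of the ER enzyme that hydroxylates prolines of collagen, which lets the triple helix hold at body temperature, and both are textbook HIF targets. P4ha1 (ENSMUSG00000019916, chromosome 10, 59323296 to 59373304) was at 98.3, 143, 135 and 131 CPM in high glucose, against 59.6, 71.1, 77.5 and 67.1 CPM in low glucose. Every high glucose library was above every low glucose library, and high glucose replicate 1 was the lowest of its group. Its log2 fold change was 0.88 ± 0.12 (SE, 1.84-fold) with an edgeR adjusted p of 0.000524.

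P4ha2 (ENSMUSG00000018906, chromosome 11, 54100095 to 54131665) was at 28.4, 38.3, 34.5 and 38.9 CPM in high glucose, against 20.4, 20.1, 20.8 and 22.7 CPM in low glucose. The low glucose values lay close together, and high glucose replicate 1 was again the lowest of its group. This was a log2 fold change of 0.74 ± 0.10 (SE, 1.67-fold) with an edgeR adjusted p of 0.000556. Without high glucose replicate 1, the library with the highest share of fibroblast markers, the log2 fold changes were 0.98 for P4ha1 and 0.82 for P4ha2 (edgeR adjusted p = 0.000177 and 0.00031).

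The log2 ratio of P4ha2 to P4ha1, from FPKM, was -2.45 ± 0.10 in high glucose and -2.31 ± 0.18 in low glucose (SD, n = 4 each). The difference of -0.14 had an exact two-sided permutation p of 0.257, and 0.40 adjusted over the 5 ratios. It ranged from -0.21 to -0.09 when each library was left out in turn. The ratio was lower in high glucose in all 4 same-number pairs, with differences of -0.24, -0.08, -0.07 and -0.19 and an exact sign-flip permutation p of 0.125. This is the smallest p that 4 pairs allow, so the paired test cannot decide whether the 2 genes changed unequally.

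Vegfa and Ndrg1, both induced by hypoxia in many cells, were lower in high glucose. Vegfa, the vessel growth factor gene (ENSMUSG00000023951, chromosome 17, 46016993 to 46032369), was at 372, 394, 428 and 409 CPM in high glucose, against 592, 539, 572 and 539 CPM in low glucose. The highest high glucose library was well below the lowest low glucose library. High glucose was lower in all 4 same-number pairs, with log2 ratios of -0.67, -0.45, -0.42 and -0.40. Vegfa fell, with a log2 fold change of -0.48 ± 0.07 (SE, 1.40-fold lower) and an edgeR adjusted p of 0.000969. It stayed between -0.52 and -0.46 when each library was left out in turn, with adjusted p of at most 0.0052.

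Ndrg1, a gene named for its repression by N-MYC and widely used as a hypoxia marker (ENSMUSG00000005125, chromosome 15, 66929318 to 66969640), was at 98.4, 106, 95.7 and 112 CPM in high glucose, against 114, 144, 118 and 133 CPM in low glucose. The groups did not overlap, but high glucose replicate 4 and low glucose replicate 1 were close to each other. The antisense gene Gm2895 shares 2.08% of the exon bases of Ndrg1 and had at most 13 counts in a library. Ndrg1 had a log2 fold change of -0.30 ± 0.09 (SE, 1.23-fold lower) with an edgeR adjusted p of 0.0343, and adjusted p of 0.00152 with the replicate block. The call was lost without high glucose replicate 1 (adjusted p = 0.0912), replicate 2 (0.0579) or replicate 3 (0.0979), and without low glucose replicate 4 (0.0934).

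**Figure D3:**
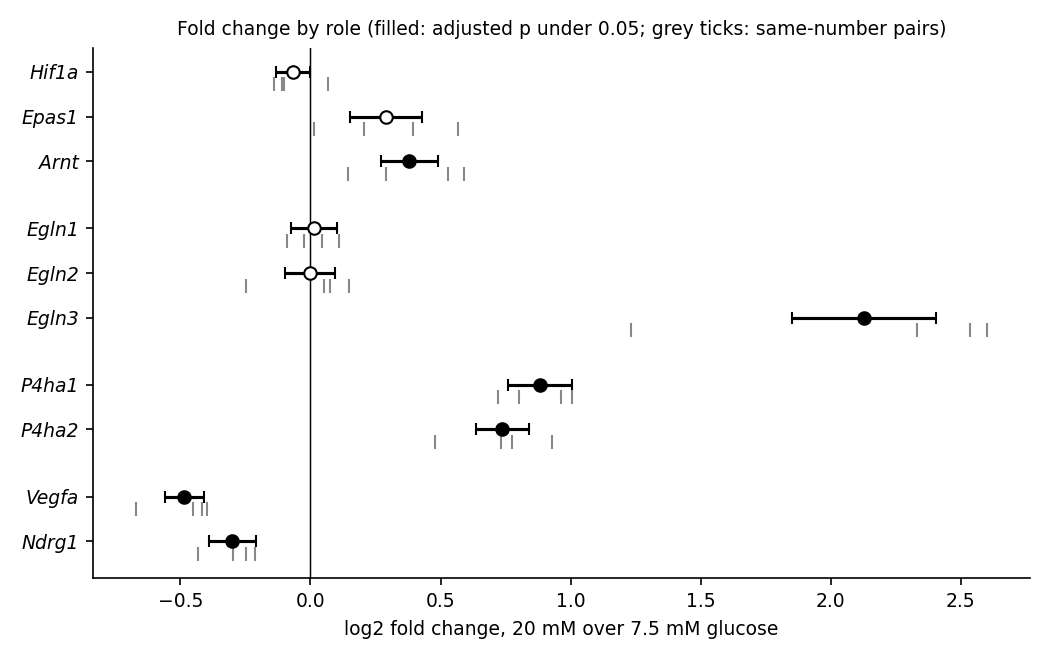
The log2 fold change of each gene, 20 mM over 7.5 mM glucose (horizontal axis), as the edgeR estimate ± SE, grouped by role. Filled circles have an adjusted p under 0.05, and grey ticks are the 4 same-number pairs. Egln3 lies at 2.13, P4ha1 and P4ha2 at 0.88 and 0.74, and Vegfa and Ndrg1 at -0.48 and -0.30.

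Levels of different genes were compared per gene length, in FPKM. Vegfa was by far the most abundant of the 10 in both media, at 92.6 ± 5.97 FPKM in high glucose and 128 ± 5.46 FPKM in low glucose (SD, n = 4 each). In high glucose it was followed by P4ha1 (30.5 ± 4.75 FPKM), Egln2 and Egln1, whose ranges over libraries overlapped, then by Ndrg1 (15.5 ± 1.08), Hif1a (12.8 ± 0.73), Arnt (7.17 ± 0.68), P4ha2 (5.56 ± 0.76), Egln3 and Epas1 (1.67 ± 0.16). In low glucose, P4ha1 stood in the fifth place with 16.3 ± 1.77 FPKM, behind Egln2, Egln1 and Ndrg1 (18.8 ± 2.08 FPKM), and its range overlapped that of Ndrg1. Egln3 was the lowest in low glucose, below Epas1 (1.34 ± 0.19 FPKM), and above it in high glucose, without overlap of their ranges in either medium.

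Further genes of the pathway were read from 6 lists, of which 90 rows for 89 genes passed the filter. Among them 35 rose and 5 fell in high glucose, 38.9% and 5.56% of the rows, against 13.1% higher and 11.9% lower of all genes tested. The lists were described by their counts and medians, without a test of a list as a whole. They were chosen with earlier results of these data known. Their shares and medians beside those of all genes are therefore a description and not independent support.

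Of 12 tested partners and regulators, among them Arnt2, Vhl, the asparaginyl hydroxylase gene Hif1an and the coactivators Ep300 and Crebbp, 1 fell, none rose and the median log2 fold change was -0.01, against 11.9% lower, 13.1% higher and a median of -0.01 over all genes. At an unadjusted edgeR p under 0.05, 1 was higher, and DESeq2 and limma-voom called 0 higher. The member that fell was Siah2, a ubiquitin ligase gene whose product targets EGLN hydroxylases. Siah2 was at 65.3, 78.4, 72.8 and 65.4 CPM in high glucose against 92.0, 93.0, 89.6 and 91.8 CPM in low glucose (log2 fold change -0.38 ± 0.07, edgeR adjusted p = 0.00383). With the replicate block 1 rose and 2 fell, against 18.9% higher and 18.5% lower of all genes, and without low glucose replicate 2, 2 rose and 3 fell.

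Genes listed with P4ha1 and P4ha2 as collagen and lysyl hydroxylases or their partners moved mostly the same way. Of 10 tested hydroxylases and partner proteins 7 rose and none fell, against 13.1% higher and 11.9% lower of all genes, and the median log2 fold change was 0.43. For lower genes, edgeR at an unadjusted p under 0.05, DESeq2 and limma-voom called 0. P4hb, which encodes the β subunit of the same enzyme and is also the ER protein disulfide isomerase, was at 1808, 1954, 1818 and 1782 CPM in high glucose against 838, 1005, 878 and 911 CPM in low glucose (log2 fold change 1.02 ± 0.08, edgeR adjusted p = 1.77e-05). P3h1, a collagen prolyl hydroxylase of another position, was at 40.0 to 48.7 CPM in high glucose against 24.8 to 27.7 CPM in low glucose (log2 fold change 0.75). Plod3, a lysyl hydroxylase gene, was at 54.0 to 62.1 CPM in high glucose against 35.7 to 46.6 CPM in low glucose (0.53). P3h4, whose product acts in lysyl hydroxylation of collagen, was at 54.3 to 60.2 CPM in high glucose against 42.3 to 49.1 CPM in low glucose (0.31). P4htm, whose product is a prolyl hydroxylase not established as a collagen enzyme, is also among the 7. It was at 31.6 to 36.6 CPM in high glucose against 22.8 to 31.0 CPM in low glucose (0.33, edgeR adjusted p = 0.0343). None of these groups overlapped. Plod3 shares 11.7% of its exon bases with the antisense gene Znhit1, so that its value is uncertain. The count of 7 was 4 without high glucose replicate 3, low glucose replicate 1 or low glucose replicate 4, and with total counts as scaling.

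Glycolytic hypoxia targets were mostly higher. Of 23 rows tested, 15 rose and 2 fell, against 13.1% higher and 11.9% lower of all genes, with a median log2 fold change of 0.67. Pfkfb3, whose product drives phosphofructokinase, was at 26.9, 29.2, 29.7 and 34.6 CPM in high glucose against 10.0, 9.75, 13.9 and 11.9 CPM in low glucose. Pdk1, a kinase gene that restrains pyruvate dehydrogenase, was at 96.6, 112, 109 and 103 CPM in high glucose against 47.2, 50.4, 62.8 and 55.7 CPM in low glucose. Neither gene's groups overlapped. Pgk1 and Eno1, which have processed copies that make their counts uncertain, had log2 fold changes of 1.23 and 1.18. Eno2, the neuronal enolase gene, was lower (log2 fold change -0.69), as was Aldoc (-0.54, edgeR adjusted p = 0.0432). Its libraries overlapped between the media, and the Aldoc call was lost when high glucose replicate 1, 3 or 4 was left out and when low glucose replicate 2, 3 or 4 was (adjusted p between 0.0613 and 0.113).

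Of 34 other tested hypoxia targets, 12 rose, 1 fell and 21 did not pass, against 13.1% higher and 11.9% lower of all genes, with a median log2 fold change of 0.34. Ak4, a mitochondrial adenylate kinase gene, was at 8.90, 21.5, 15.9 and 24.5 CPM in high glucose against 1.93, 1.82, 4.07 and 3.94 CPM in low glucose (log2 fold change 2.59 ± 0.36, edgeR adjusted p = 0.000498). Gys1, the muscle-type glycogen synthase gene, was at 29.1, 44.5, 40.5 and 42.5 CPM in high glucose against 17.3, 17.7, 22.1 and 17.5 CPM in low glucose. Ero1l, an ER thiol oxidase gene, was at 153, 198, 195 and 186 CPM in high glucose against 111, 92.0, 126 and 115 CPM in low glucose. High glucose replicate 1 was the lowest of its group for all 3, and no groups overlapped. The antisense gene Ruvbl2 shares 6.47% of the exon bases of Gys1. Tfrc, the transferrin receptor gene, was the member that fell, at 125, 129, 139 and 115 CPM in high glucose against 245, 218, 229 and 216 CPM in low glucose (log2 fold change -0.84 ± 0.08, edgeR adjusted p = 4.57e-05). The count that fell was 3 with the replicate block, with total counts as scaling and without low glucose replicate 2. With the block, 18.5% of all genes were lower.

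Of 8 tested VEGF ligands and receptors, Vegfc rose and Vegfb fell, 12.5% in each direction, which is near the 13.1% higher and 11.9% lower of all genes. The receptor genes Flt1, Kdr, Flt4, Nrp1 and Nrp2 did not pass, with log2 fold changes between -0.31 and 0.44. Vegfb was at 21.6, 29.4, 27.5 and 26.4 CPM in high glucose against 38.9, 48.7, 48.4 and 40.2 CPM in low glucose (log2 fold change -0.75 ± 0.11, edgeR adjusted p = 0.000863). Vegfc, a lymphatic growth factor gene, was at 4.52, 4.26, 3.63 and 4.69 CPM in high glucose against 1.86, 1.93, 1.85 and 1.68 CPM in low glucose (log2 fold change 1.22 ± 0.17, edgeR adjusted p = 0.000545). The count that rose was 3 with the replicate block, against 18.9% higher of all genes, and 2 without low glucose replicate 2. The Ndrg1 relatives Ndrg2, Ndrg3 and Ndrg4 had log2 fold changes of 0.04, -0.16 and -0.08. Of these, 0 of 3 passed in edgeR, DESeq2 or limma-voom or had an unadjusted edgeR p under 0.05. With the replicate block 1 fell, against 18.5% lower of all genes. With total counts as scaling 1 fell as well, where 2636 genes of the whole table were lower, against 1831 in the main test.

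**Figure D4:**
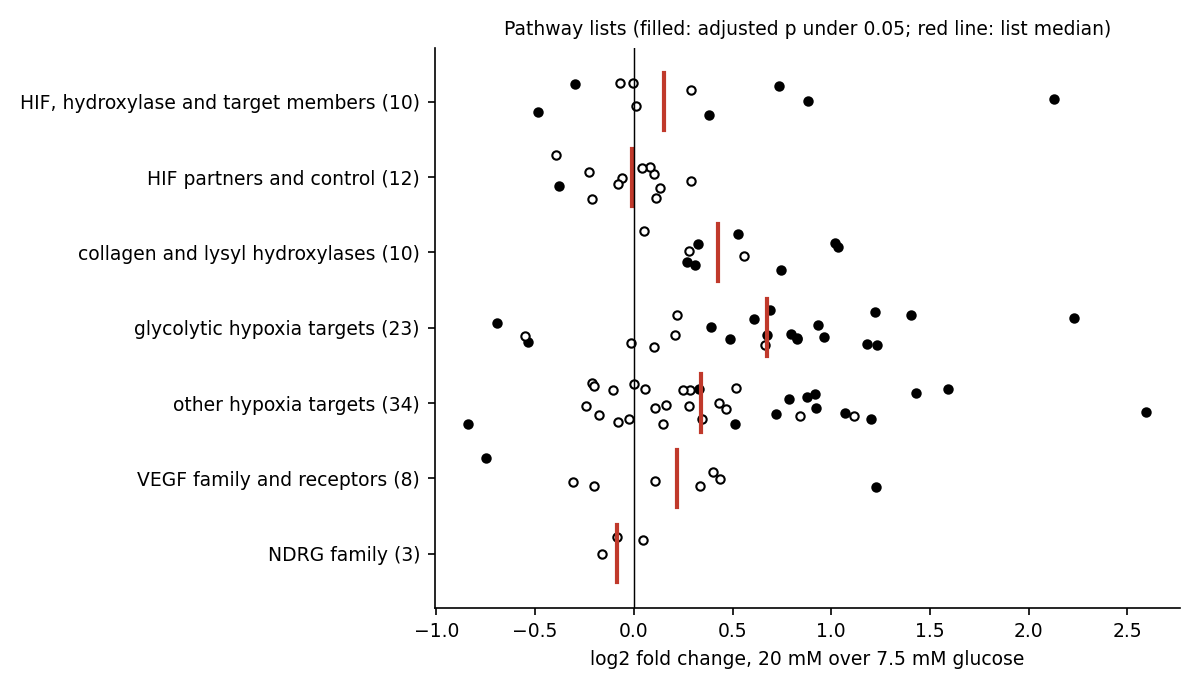
The log2 fold change, 20 mM over 7.5 mM glucose (horizontal axis), of the 10 genes and of each tested row of 6 pathway lists, with the number tested in brackets. Filled circles have an edgeR adjusted p under 0.05, red lines are medians, and vertical scatter within a list carries no value. Medians are 0.15 for the 10 genes, 0.43 for collagen and lysyl hydroxylases and 0.67 for glycolytic targets.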

How the data were processed

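Read counts per gene, whole numbers that were not normalized, were taken as the authors deposited them, per the file headers. STAR 2.5, HTSeq 2, DESeq2 and the build mm10 (GRCm38) are named in the submitters' processing notes. For strand, annotation release and reads with several map positions, the settings are not given in these sources. The library kit was NEBNext Ultra, per the labels. The deposited FPKM, per the file headers, was used to compare genes and for ratios. The deposited normalized signal is each library's counts over a single size factor. The deposited log2 fold changes and p-values are the authors' own comparison.

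The test on counts was run in edgeR 4.0.16 under R 4.3.3 (TMM scaling, filterByExpr with minimum count 10 and minimum total 15, a quasi-likelihood model with group as its only term, Benjamini-Hochberg adjustment over the 15442 genes tested, threshold 0.05). The SE of a log2 fold change was obtained from it and its F statistic (log2 fold change over the root of F), and CPM uses TMM-scaled library sizes. The procedure was checked on simulated counts with known changes. Ratios were compared with exact permutation tests (scipy 1.17.1). Alternatives used limma 3.58.1, DESeq2 1.42.0, other scalings, no filter, left-out libraries and a replicate block.

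The labels number libraries 1 to 4 in both groups. Same-number libraries deviated from their group means together, with correlations of 0.101, 0.449, 0.404 and 0.475 for numbers 1 to 4. The numbers were therefore taken as pairs in the results by same-number pair and in the replicate block. The main edgeR test had group as its only term and used no pairing. For number 1 the pairing is uncertain, because low glucose replicate 1 correlated more with high glucose replicate 4 (0.207) than with high glucose replicate 1. Results by same-number pair and with the replicate block depend on this pairing. No library copied another (chi-square per gene at least 14.1). Members and lists were chosen with earlier results of these data known, and Aldoa enters as 2 gene identifiers. All 10 members are named, and from each list at most 4 called genes, by smallest adjusted p, and at most 2 called in the opposite direction, and from each marker list described the 2 most abundant. Other list and marker genes named were chosen after their values were seen. Of the members' coordinates, 9 equal those of GENCODE M21.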

Additional observations from a re-analysis of the deposited data

How the results depend on the processing

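Egln3, P4ha1, P4ha2 and Vegfa kept their direction and call under every other scaling, filter, tool, block and left-out library that was run, while Arnt and Ndrg1 did not, as given above, and Hif1a, Epas1, Egln1 and Egln2 passed under none. The count of members that fell was 1 to 2 when each library was left out in turn, and the count of pathway list genes that fell, 5 in all, was 4 to 8. That count was 8 with total counts as scaling, 9 with the replicate block and 10 with both libraries numbered 2 left out, and the cause was not tested. With the replicate block, 2862 genes of the whole table were lower in high glucose, against 1831 without it. The block changed no member's call. None of the 5 ratios passed after adjustment under any alternative, but leaving out a library, or pairing libraries by number, leaves too few arrangements for a p to pass, so this does not bear on their stability. With all libraries and no pairing, a ratio that alone reaches the smallest p cannot pass the adjustment either. The 23 to 47 reads of Egln3 per low glucose library limit the precision of its fold.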
